A study of Mus musculus with 4 samples.

Results

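Meiotic recombination starts when spermatocytes break their own DNA, and 9 genes of this step were followed in testes that lost *Mps1*. They were *Spo11*, *Prdm9*, *Zcwpw1*, *Rec114*, *Mei4*, *Mei1*, *Ankrd31*, *Hormad1* and *Hormad2*, chosen by gene symbol for their role in hotspot choice and break formation in leptotene, and each was found once among the 55820 loci of the deposited count table. All 9 were among the 20561 loci that passed the filter on low counts. Total RNA of whole testes from male C57BL/6J mice at postnatal day 10 (P10) was sequenced in 4 libraries, 2 labelled control and 2 labelled *Mps1* Stra8-cre knockout (Mps1sKO). In Mps1sKO mice, Cre under the *Stra8* promoter deletes floxed *Mps1* in germ cells from early spermatogonia to preleptotene spermatocytes. The labels do not say which alleles the control mice carried or whether a library held 1 mouse.

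Programmed breaks are made by SPO11, a relative of archaeal topoisomerases, at sites that PRDM9 picks by binding DNA with its zinc fingers and methylating the histone H3 of nearby nucleosomes. REC114 and MEI4 assemble with IHO1 on the chromosome axis, where the HORMA domain proteins HORMAD1 and HORMAD2 mark stretches that have not yet synapsed. Spermatocytes without breaks cannot pair their homologs and are lost in prophase of meiosis I. At P10, the first wave of spermatogenesis has reached the early steps of prophase, in which these genes act.

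The promoters of the members are shown first, as a description of the genes. Of the 9, 8 have a promoter window in RefSeq (GRCm38.p6), read here as the 250 bases before the start site. The windows were searched on both strands for the E-box CACGTG, which MAX and MGA bind, for the E2F site TTCCCGC, and for CNCCTCAG, a motif reported at promoters that STRA8 binds. Printed below, 5′ to 3′ in the direction of the gene and with the matches in capitals, are the 4 windows that held at least 1 of them, *Prdm9* (chr17:15564355-15564604, minus strand), *Hormad1* (chr3:95559427-95559676, plus strand), *Hormad2* (chr11:4441083-4441332, minus strand) and *Rec114* (chr9:58741560-58741809, minus strand).
Prdm9: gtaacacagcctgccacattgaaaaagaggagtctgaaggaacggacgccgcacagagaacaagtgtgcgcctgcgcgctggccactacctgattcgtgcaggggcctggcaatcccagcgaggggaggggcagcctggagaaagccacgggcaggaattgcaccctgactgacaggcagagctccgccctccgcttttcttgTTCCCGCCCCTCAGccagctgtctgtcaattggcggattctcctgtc
Hormad1: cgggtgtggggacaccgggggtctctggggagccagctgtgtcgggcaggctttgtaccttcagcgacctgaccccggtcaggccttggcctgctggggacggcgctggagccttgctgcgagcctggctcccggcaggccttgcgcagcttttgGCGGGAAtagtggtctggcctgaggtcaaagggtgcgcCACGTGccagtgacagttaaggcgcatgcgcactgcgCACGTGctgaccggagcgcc
Hormad2: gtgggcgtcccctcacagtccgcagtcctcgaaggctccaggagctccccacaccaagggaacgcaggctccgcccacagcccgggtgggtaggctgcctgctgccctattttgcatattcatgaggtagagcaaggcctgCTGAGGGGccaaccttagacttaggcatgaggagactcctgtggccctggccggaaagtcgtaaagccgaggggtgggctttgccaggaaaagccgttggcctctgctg
Rec114: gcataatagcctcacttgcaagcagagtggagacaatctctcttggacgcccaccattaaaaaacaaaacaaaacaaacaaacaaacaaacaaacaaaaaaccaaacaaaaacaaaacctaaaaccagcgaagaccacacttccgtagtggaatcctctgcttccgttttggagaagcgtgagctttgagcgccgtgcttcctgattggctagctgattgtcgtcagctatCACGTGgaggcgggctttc

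*Prdm9* held 1 E2F site and, overlapping its end, 1 CNCCTCAG match, which begin 47 and 41 bases before the start. *Hormad1* held 1 E2F site on the opposite strand and 2 E-boxes, and its paralog *Hormad2* held neither but 1 CNCCTCAG match. *Rec114* held 1 E-box, 19 bases before the start of a coding transcript that begins 2405 bases inside the annotated gene. Each motif was thus found in 2 of 8 member windows. Over all 32851 windows of the table, the E-box was in 6.02%, the E2F site in 3.82% and CNCCTCAG in 6.42%. *Prdm9*, *Zcwpw1* and *Hormad1* have 2 windows each, and only the one nearest the annotated start was read, whereas these shares cover every window. The windows of *Zcwpw1*, *Mei4*, *Mei1* and *Ankrd31* held none of these letters. The window of *Mei1* lies 12480 bases inside its annotated gene, at the start of a shorter transcript, and no binding was measured here.

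The libraries held 23311689 to 28607746 counts. The targeted gene *Ttk*, which encodes MPS1, was measured at 27.9 and 32.6 CPM (counts scaled to a common library size) in control and 13.0 and 12.2 CPM in Mps1sKO testes, which is −1.26 ± 0.129 (SE) on the log2 scale with an adjusted p of 0.0461 (edgeR). Markers of the tissue were present. All 12 germ cell genes and 11 of 12 Sertoli cell genes were tested, while *Rhox5* had at most 1 count in a library. Of 5 spermatid genes, only *Tnp1* passed the filter, and their summed level was at most 1.46 CPM in every library.

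All 9 break formation genes had a lower level in Mps1sKO testes, and for every one of them both Mps1sKO libraries lay below both control libraries. Over all loci tested, 21.1% lay below in the same way. The levels in Mps1sKO testes were 58.9% (*Spo11*) to 79.7% (*Rec114*) of control, and the median log2 fold change was −0.62, against 0.00027 over all loci tested. The two-sided quasi-likelihood test of edgeR was run on every locus, with Benjamini-Hochberg adjustment over all of them. None of the 9 reached an adjusted p below 0.05 (lowest 0.494), where 0.0292% of all loci tested did so in the lower direction. With the study's own cut-offs, which ask for p under 0.01 without adjustment and more than a 1.5-fold change, 5 of the 9 were called lower, against 0.681% of all loci tested. DESeq2, the tool the study used, called the same number, where it called 0.267% of 35262 loci lower. It was run without the filter on low counts, so its share is taken over more loci than that of edgeR. At an unadjusted p below 0.05 alone, 7 of the 9 were lower, against 5.37%. The 5 called genes, *Spo11*, *Prdm9*, *Zcwpw1*, *Ankrd31* and *Hormad1*, are also in the study's table of downregulated genes, which was made from these libraries, so their calls are not independent of it. Differences within a genotype measure the spread between libraries. In whole testes, fewer germ cells, another mix of germ cell stages and less RNA per germ cell cannot be told apart.

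**Figure D1:**
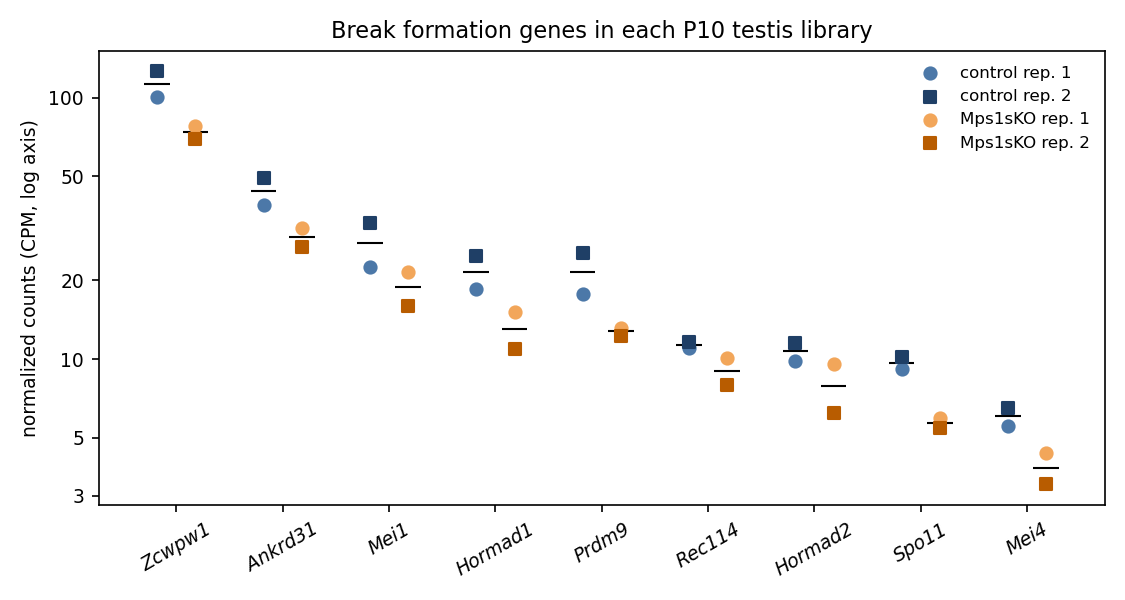
Normalized counts (CPM, log axis) of the 9 break formation genes in each library, with blue points for the control and orange points for the Mps1sKO libraries and short lines for the mean of 2 libraries. For all 9 genes control replicate 2 is the highest point and Mps1sKO replicate 2 the lowest.

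*Spo11* encodes the enzyme that cuts the DNA and stays bound to the cut ends. Its counts were 246 and 295 in control and 138 and 146 in Mps1sKO testes, or 9.13 and 10.2 CPM against 5.96 and 5.45. The libraries of each genotype lay close together, and the gap between the lowest control and the highest Mps1sKO library was 3.18 CPM. The log2 fold change was −0.76 (95% interval −1.14 to −0.39, unadjusted p = 0.0016 and adjusted p = 0.494 from edgeR), the lowest of the 9 together with that of *Prdm9*. *Spo11* was also the least dependent on a single library, since its log2 fold change stayed from −0.85 to −0.68 whichever library was left out. It lies on chromosome 2 from 172977700 to 172993576 (GRCm38) and has 3 coding transcripts in GENCODE M21, which the gene counts do not separate.

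*Prdm9* encodes the histone methyltransferase that places hotspots. Its levels were 17.8 and 25.4 CPM in control and 13.2 and 12.3 CPM in Mps1sKO testes, from 480, 734, 307 and 329 counts. The Mps1sKO libraries were alike, whereas the control libraries differed by 0.51 on the log2 scale. Its log2 fold change of −0.76 (95% interval −1.18 to −0.34, adjusted p = 0.494 from edgeR) was −0.48 without control replicate 2. The study also measured *Prdm9* by qPCR in P10 testes and reports a change in the same direction as in its sequencing. The primer pair of the study is printed because it shows which part of the transcript that assay reads.
Prdm9 forward primer: tctggacagcactctgggaa
Prdm9 reverse primer: ttctggcacttctcacaatagagat

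Both primers match only *Prdm9* among the GENCODE M21 transcripts, and together they span 149 bases in 3 of its 7 transcripts. In the longest coding transcript, the forward primer lies in exon 5 and the reverse primer crosses the junction of exons 6 and 7 of 10. The counts analysed here cover all exons of the gene, on chromosome 17 from 15543079 to 15564354.

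*Zcwpw1* encodes a reader of the histone marks that PRDM9 writes and had the highest level of the group. It had 101 and 126 CPM in control and 78 and 69.6 CPM in Mps1sKO testes, from 1807 to 3630 counts. Its lowest control library stood 22.9 CPM above its highest Mps1sKO library. The log2 fold change was −0.62 (95% interval −0.91 to −0.33, unadjusted p = 0.00131 from edgeR), with the smallest standard error of the group, 0.126. *Zcwpw1* was the only member with an adjusted p below 0.05 in DESeq2 (adjusted p = 0.0127), where 0.195% of the loci with an adjusted p were called lower. Of its exon bases, 8.21% are shared with *Pilra* on the opposite strand, which had 9 to 14 counts in a library.

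*Rec114*, *Mei4*, *Mei1* and *Ankrd31* encode factors that SPO11 needs or that set where and when it cuts. *Ankrd31*, whose product directs breaks to the region that the X and Y chromosomes share, had 39.0 and 49.3 CPM in control and 31.6 and 26.9 CPM in Mps1sKO testes. Its groups stood apart by 7.36 CPM, and its log2 fold change was −0.60 (95% interval −0.93 to −0.27, adjusted p = 0.494 from edgeR). *Mei4* was the lowest expressed gene, with 5.57 and 6.52 CPM in control and 4.36 and 3.32 CPM in Mps1sKO testes, from 89 to 188 counts. Its log2 fold change of −0.66 (95% interval −1.14 to −0.18) had an unadjusted p of 0.0132 from edgeR, so it missed the study's cut-offs although the fold change passed them.

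*Mei1*, which is needed for break formation in both sexes, had 22.6 and 33.3 CPM in control and 21.5 and 16 CPM in Mps1sKO testes. Here control replicate 1 and Mps1sKO replicate 1 differed by only 1.04 CPM, less than the difference between the 2 control libraries. Its log2 fold change of −0.58 (95% interval −1.07 to −0.09) was −0.27 without control replicate 2. *Rec114*, the partner of MEI4, had 11 and 11.6 CPM in control and 10.1 and 7.99 CPM in Mps1sKO testes, and its log2 fold change of −0.33 was the smallest in size, with a 95% interval from −0.71 to 0.045. It was −0.17 without Mps1sKO replicate 2 and −0.50 without Mps1sKO replicate 1. The 3′ end of *Rec114* overlaps *Nptn* on the opposite strand over 344 bases, or 26.9% of the exon bases of *Rec114*. *Nptn* had 2990 to 3536 counts in a library, about as many in each genotype, against 214 to 335 for *Rec114*. The strand setting of the counting is not given in the sources used here, and the part of this overlap in the value of *Rec114* was not tested.

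*Hormad1* and *Hormad2* encode the HORMA domain proteins that mark stretches of the axis that have not yet synapsed. *Hormad1* had 18.5 and 24.8 CPM in control and 15.1 and 10.9 CPM in Mps1sKO testes, with a log2 fold change of −0.74 (95% interval −1.20 to −0.28, unadjusted p = 0.00633 from edgeR). *Hormad2* had 9.84 and 11.5 CPM in control and 9.58 and 6.23 CPM in Mps1sKO testes. Control replicate 1 and Mps1sKO replicate 1 of *Hormad2* were only 0.259 CPM apart, and its log2 fold change of −0.44 (95% interval −0.94 to 0.07) was −0.15 without Mps1sKO replicate 2. The 95% intervals of *Hormad1* and *Hormad2* overlapped, as did those of all 36 pairs of members. This overlap does not compare 2 members, since all come from the same libraries and share their spread. Whether a member responded more than another was not tested.

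**Figure D2:**
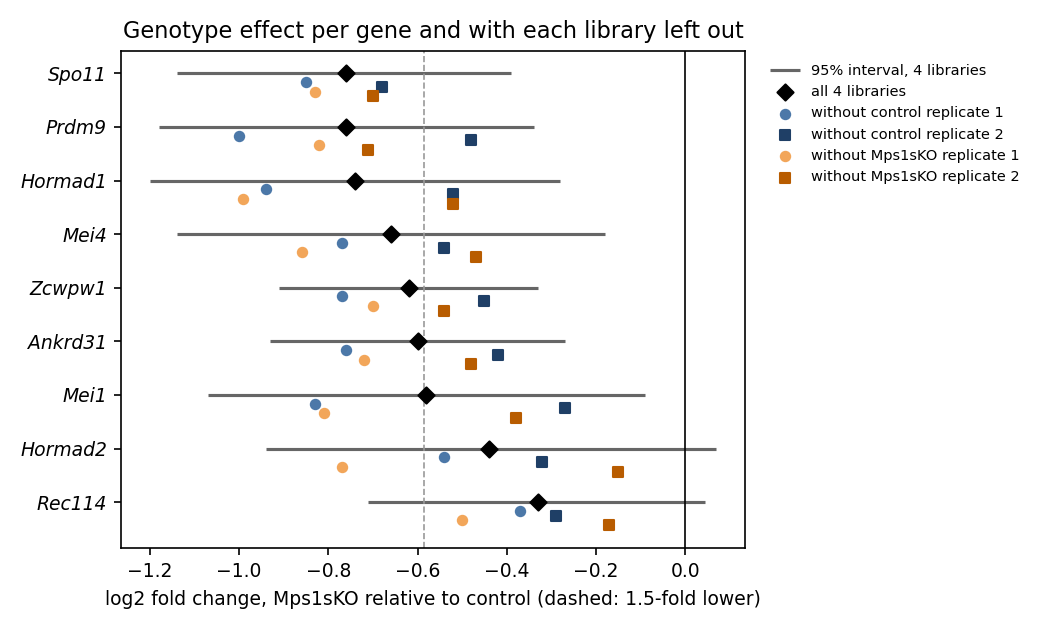
Log2 fold changes of Mps1sKO relative to control for the 9 genes. Black diamonds with grey lines give the value and 95% interval from all 4 libraries, and colored points give the value with 1 library left out. The values without control replicate 2 or without Mps1sKO replicate 2 lie closer to 0 than the value from all 4 libraries, and 7 of the 9 intervals lie below 0.

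The members also differed between libraries of the same genotype, and in the same order. All 9 were higher in control replicate 2 than in control replicate 1, with a median difference of 0.32 on the log2 scale, where 49.5% of all loci tested were higher. All 9 were lower in Mps1sKO replicate 2 than in Mps1sKO replicate 1, with a median of −0.33. The order control replicate 2, control replicate 1, Mps1sKO replicate 1, Mps1sKO replicate 2 was thus common to the 9 genes, and 8.26% of all loci tested followed it. Without control replicate 2, 1 of the 9 genes passed the study's cut-offs, and without Mps1sKO replicate 2 also 1, and in both cases this gene was *Spo11*. Without control replicate 1 the number was 7 and without Mps1sKO replicate 1 it was 8. The calls over all loci moved too, from 140 with 4 libraries to 78 without control replicate 2, 170 without Mps1sKO replicate 2, 296 without control replicate 1 and 256 without Mps1sKO replicate 1. In these tests on 3 libraries, the single library of a genotype is assumed to vary like the pair of the other.

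Germ cell marker genes followed the members from library to library. The 12 genes of the germ cell list, which includes *Ddx4* and *Dazl* and none of the members, summed to 1660 and 2030 CPM in control and to 1560 and 1170 CPM in Mps1sKO testes. All 12 were lower in both Mps1sKO libraries than in both control libraries, as were 21.1% of all loci tested, with log2 fold changes from −0.51 to −0.36 and a median of −0.42 for the 12. The 7 genes of differentiating spermatogonia had a median of −0.49, with 6 lower and 1 higher, from −0.93 to 0.30. The 8 genes of undifferentiated spermatogonia had a median of −0.06, with 4 lower and 4 higher, from −0.36 to 0.22. All 11 tested Sertoli cell genes were higher, with a median of 0.38, and 5 of them had an unadjusted p below 0.05 from edgeR, where 3.92% of all loci tested did so in the higher direction. The Sertoli list summed to 6460 and 6680 CPM in control and to 8430 and 7720 CPM in Mps1sKO testes. The 7 Leydig cell genes had a median of 0.18, and the peritubular myoid, macrophage and endothelial lists, of 5 genes each, had medians of −0.12, −0.13 and 0.10.

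Each member was therefore also counted relative to the germ cell list. *Spo11* had 5.51 and 5.03 counts for every 1000 counts of the germ cell list in control and 3.81 and 4.66 in Mps1sKO testes, which is 0.803 of control. *Hormad1* had 11.2 and 12.2 against 9.63 and 9.33, or 0.812 of control, and *Prdm9* had 10.8 and 12.5 against 8.47 and 10.5, or 0.815. On this scale, 6 of the 9 genes lay below control in both Mps1sKO libraries, and *Mei1*, *Rec114* and *Hormad2* overlapped. Of all loci tested, 1.94% lay below, where 21.1% did before the division. That share fell because the germ cell list was itself lower in Mps1sKO testes, so it gives no comparison with other germ cell genes. *Hormad2* was at 0.989 and *Rec114* at 1.07 of control, so the direction of *Rec114* turned. With all libraries scaled to this list, the median log2 fold change of the members was −0.17, the median of all loci moved to 0.45, and no member had an unadjusted p below 0.05 (lowest 0.372 from edgeR). The 95% interval was −1.01 to 0.38 for *Spo11*, which holds both a decrease and an increase relative to the germ cell genes. This scaling carries the swing of the germ cell list between libraries into every locus that does not follow it, and edgeR shares spread between loci. The standard error of *Zcwpw1* rose from 0.126 to 0.338, and those of the other members to similar values. The scaled test was thus too wide to decide on a decrease relative to the germ cell genes. The parts of germ cell number and of germ cell stage in the lower levels were not tested.

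**Figure D3:**
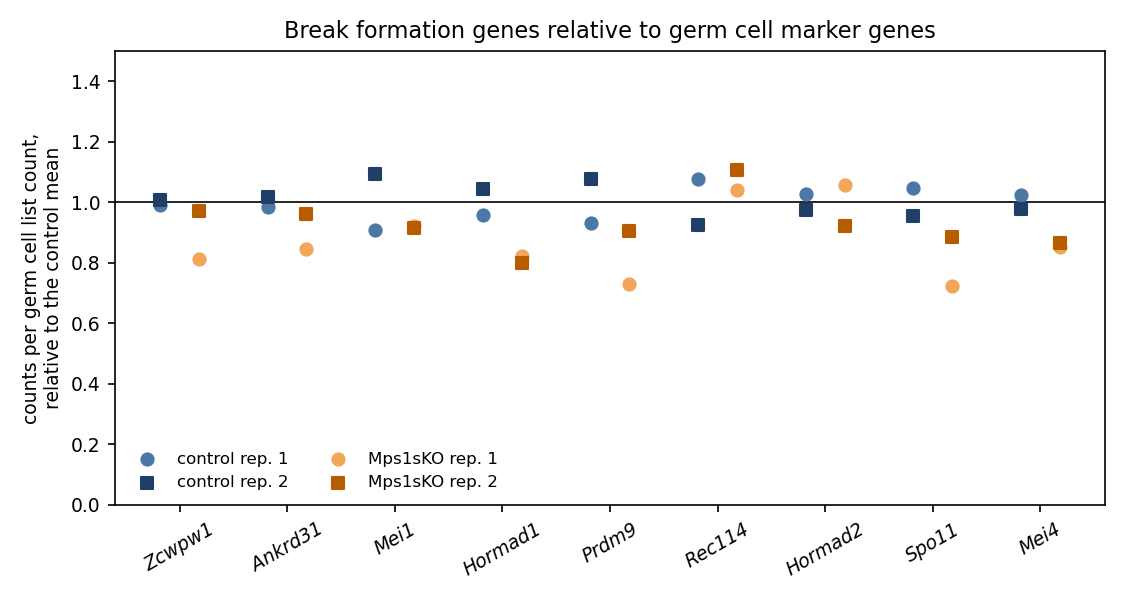
Counts of the 9 genes divided by the summed counts of the 12 germ cell marker genes, with the control mean of each gene set to 1 and 1 point for each library. The ratio of group means lies between 0.803 for *Spo11* and 1.07 for *Rec114*.

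Further genes of the pathway were followed in a list of 17 partners, all tested. Of these, 15 were lower and 2 higher, with a median log2 fold change of −0.22. None passed the study's cut-offs in either direction, against 0.681% of all loci lower and 0.146% higher, and 6 were lower at an unadjusted p below 0.05 from edgeR, against the 5.37% of all loci tested. Both Mps1sKO libraries lay below both control libraries for 10 of the 17, or 58.8%, where 21.1% of all loci did. The partners of the break machinery itself were among the 6. *Ccdc36*, which encodes IHO1, had 23.8 and 28.8 CPM in control and 21.4 and 16.5 CPM in Mps1sKO testes, a log2 fold change of −0.48. *Gm960*, which encodes TOPOVIBL, the second subunit of the SPO11 core complex, had 12.0 and 15.7 CPM against 10.6 and 9.81 CPM, a log2 fold change of −0.44.

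Partners of PRDM9 and hotspot chromatin genes had a median of −0.14 over 6 genes, from −0.36 for *Hells*, a chromatin remodeler that opens hotspots, to 0.15 for *Cdyl*. *Hells* was the only one of the 6 with an unadjusted p below 0.05 (0.0273 from edgeR). Genes of this list such as *Ewsr1*, the most abundant at 615 to 682 CPM, are also used outside meiosis. For HORMAD removal and the checkpoint on unsynapsed axes, *Trip13*, *Brca1* and *Atr* had log2 fold changes of −0.30, −0.36 and −0.21. *Atm*, which limits the number of breaks, had 144 and 173 CPM in control and 147 and 118 CPM in Mps1sKO testes, and its groups overlapped. The 5 genes of break end processing ranged from −0.30 for *Rad50* to −0.10 for *Nbn*.

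Beside the break formation genes stood neighbouring groups of meiotic genes. The 4 genes of meiotic entry had a median log2 fold change of −0.82, the 8 synaptonemal complex genes one of −0.60, the 4 meiotic cohesin genes one of −0.54 and 19 genes of strand exchange and crossover one of −0.47. The study's cut-offs called 3 of 4, 5 of 8, 1 of 4 and 3 of 19 of these genes lower, beside 5 of 9 break formation genes and 0.681% of all loci tested. The break formation genes, at −0.62, thus lay within the range of these groups, and no difference between the groups was tested.

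**Figure D4:**
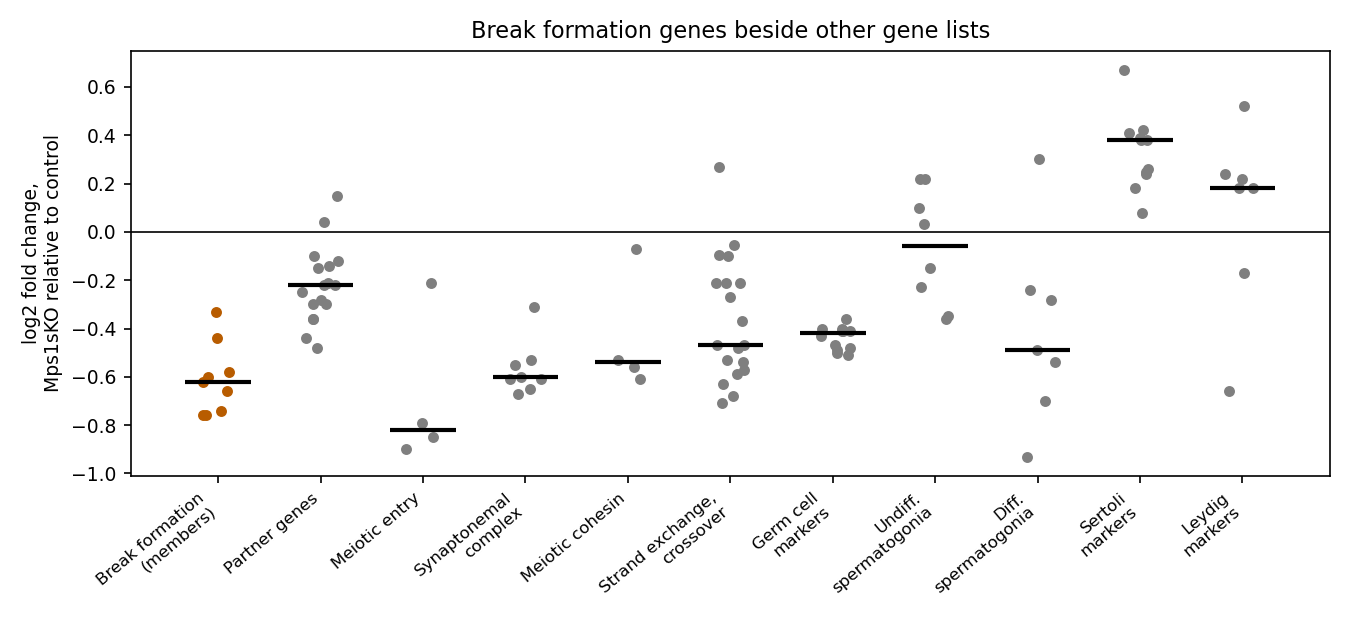
Log2 fold change of each tested gene in the break formation group (orange), its partners, 4 neighbouring meiotic groups and marker lists of other testis cells, with 1 point for each gene and a line at the median of each list. The break formation genes lie between −0.76 and −0.33 and the Sertoli markers between 0.08 and 0.67.

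Levels of different genes were compared per length, as FPKM, which the file gives over the summed exon length of each gene. In control testes the order was *Zcwpw1* at 19.8 ± 3.11 FPKM (SD, n = 2), *Hormad1* at 12.4 ± 2.56, *Rec114* at 8.80 ± 0.337, *Ankrd31* at 7.06 ± 1.19, *Mei1* at 5.85 ± 1.60, *Prdm9* at 4.99 ± 1.25, *Hormad2* at 3.87 ± 0.426, *Spo11* at 2.45 ± 0.200 and *Mei4* at 1.46 ± 0.164. The control libraries of *Ankrd31* and *Mei1*, of *Mei1* and *Prdm9* and of *Prdm9* and *Hormad2* overlapped, so these neighbours were not separated by the spread between libraries. The order of the means was the same in Mps1sKO testes, where *Zcwpw1* was at 12.9 ± 1.01 and *Mei4* at 0.928 ± 0.176 FPKM (SD, n = 2). There, the libraries of *Hormad1* (8.67 and 6.29) and *Rec114* (7.84 and 6.24) overlapped. So did those of *Ankrd31* and *Mei1* and those of *Prdm9* and *Hormad2*, so the order of these neighbours was not resolved. The length matters here, since the summed exons of *Zcwpw1* are 2.56 times and those of *Spo11* 2.29 times as long as the longest coding transcript. Per length of that transcript, *Zcwpw1* was at 50.6 ± 7.98 and *Spo11* at 5.62 ± 0.458 (SD, n = 2) in control testes, beside *Hormad2* at 5.37 ± 0.592, and the control libraries of *Spo11* and *Hormad2* then overlapped.

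Among 17037 other loci with a mean of at least 1 CPM, the pattern most like the mean of the 9 members over the 4 libraries was that of *Stag3*, a meiotic cohesin subunit, at a root mean square distance of 0.0172 on the log2 scale. It was followed by *Lin28b* (0.0275), *Gm49167* (0.0292), *Pde1b* (0.0310) and *Zfand4* (0.0328). The members themselves lay 0.0331 (*Ankrd31*) to 0.160 (*Rec114*) from their own mean, and 623 other loci lay within the largest of these distances. With 4 libraries, this likeness is a description only.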

How the data were processed

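The 4 RNA-seq libraries of P10 whole testes were assigned to control or Mps1sKO from the sample titles. Per the labels, libraries were made with a NEBNext Ultra kit and read paired-end on a NovaSeq, and the submitters' processing notes name HISAT2 2.0.5, featureCounts, DESeq2 1.16.1 and the build mm10 (GRCm38). The authors deposited raw counts for each gene, without normalization, and FPKM values, which divide the counts by the summed exon length and a library size. The identifiers, coordinates and lengths of the 9 members equal those of GENCODE M21.

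The count test was that of edgeR 4.0.16 under R 4.3.3 (filterByExpr, TMM, quasi-likelihood test on genotype, Benjamini-Hochberg over 20561 loci). The common biological coefficient of variation was 0.106. CPM uses TMM library sizes. Limits from 3 counts are 0.104 to 0.129 CPM and cover counting error only. The scripts were tested on simulated data. Replicate libraries were not duplicates of each other (chi-square per degree of freedom 8.49 and 11.6). The smallest p of an exact permutation test of 2 against 2 libraries is 0.333, so p-values come from models across all loci.

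Alternatives were DESeq2 1.42.0, limma-voom (limma 3.58.1), other scalings, filters and dispersions, the replicate number as a block and each library left out. The members, lists and tests were chosen with earlier results of these data known. The named genes are the 9 members, *Ttk*, for each partner list the lowest and highest log2 fold change and any gene past the study's cut-offs, and the 5 loci nearest to the mean pattern of the members. Other genes were named after their values were seen. Of the strand exchange list, 1 entry was left out because its older symbol was in doubt. No promoter window was found for *Spo11*.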

Additional observations from a re-analysis of the deposited data

How the results depend on the processing

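Of 135 values of single members under the alternatives, 134 were lower in Mps1sKO testes. The exception was *Rec114*, at a log2 fold change of 0.10 with the libraries scaled to the germ cell list. Under that scaling the standard errors were wider, for *Zcwpw1* 0.338 against 0.126. The member median was −0.17, and 0 members passed the study's cut-offs or an unadjusted p below 0.05. Of the partners, 0 passed the latter. *Ttk* was at −0.81 and missed an adjusted p below 0.05 (0.403 from edgeR). Of all loci, 19 were then lower and 355 higher with the study's cut-offs, 44 lower at an unadjusted and 11 at an adjusted p below 0.05, where the unscaled test gave 140, 30, 1105 and 6.

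Without the filter on low counts, 339 loci were lower and 135 higher with the study's cut-offs, 1693 lower at an unadjusted and 251 at an adjusted p below 0.05, the last with 6 members and 1 partner. DESeq2 gave 596 lower loci at an unadjusted and 30 at an adjusted p below 0.05, with 1 member among the latter. With annotated genes only, with at least 10 counts in every library and with limma-voom, 3 loci each had an adjusted p below 0.05, and *Ttk* missed it at log2 fold changes of −1.26, −1.27 and −1.26. The cause of these changes was not tested.

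Replicate numbers are shared by both genotypes, and the labels do not say whether they pair the samples. The deviations of same-numbered libraries correlated at −0.19, which cannot settle this with 2 libraries in each genotype. With the replicate block, 4 members (*Hormad1* not among the called genes) and 100 of all loci were lower with the study's cut-offs. At an unadjusted p below 0.05, 1 partner and 686 loci were lower, and at an adjusted one 2 loci. *Ttk* was at −1.26 and missed an adjusted p below 0.05. A crossed replicate block, added after seeing the data, gave 71 higher loci with the study's cut-offs, 1916 lower loci, 12 lower and 1 higher partners at an unadjusted p below 0.05, and 304 lower loci, 6 members and 4 partners at an adjusted one.

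Leaving out 1 library at a time, the member median ranged from −0.81 to −0.45 and that relative to the germ cell genes from −0.24 to −0.13. With the study's cut-offs, 1 to 8 members, 0 to 2 partners and 78 to 296 loci were lower and 65 to 172 loci higher. At an unadjusted p below 0.05, 0 to 10 partners and 441 to 1412 loci were lower, and at an adjusted one 0 to 5 members and 6 to 76 loci. The 5 members were called without control replicate 1. Single members rest on 89 to 3630 counts in a library and on 2 libraries in each genotype.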
